A study of Mus musculus with 9 samples.

Results

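The genes described here are 48 genes of the G1/S transition and of DNA replication. They were followed in libraries from mouse Lewis lung carcinoma (LLC1) cells after contact with T cells labelled Th9 or Th17, each against Th0. The 48 were chosen by name for their known roles, with earlier results of these data known. A gene counted as a member where its symbol stood in both deposited tables, so all 48 are listed by that rule. The table that holds Th9 has 18816 genes and the table that holds Th17 has 18511 genes. All 48 also passed the filter on low values (mean normalized count of 10 or more in the 6 libraries of a table), so no member was left out of a test.

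LLC1 is an established mouse lung cancer line. There were 3 groups of 3 libraries: Th9 (LLC1 kept with Th9 cells), Th17 (LLC1 kept with Th17 cells) and Th0 (LLC1 kept with Th0 cells). In all groups the cultures lasted 24 h at 1 T cell per LLC1 cell, with artificially made T cells that touched the tumour cells, and CD4-positive cells were then sorted off before RNA was taken from what was left. The title names the question, which is whether lymphocytes of the Th9 and Th17 kinds bring about an epithelial-mesenchymal transition in lung cancer cells and favour their spread. LLC1 cells kept without T cells were not analysed here, so every comparison is between kinds of T cell. Nothing in the labels tells if libraries of the same group are independent cultures, so p-values rest on the spread between these samples, which may be technical.

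A cell copies its DNA once per division in steps that are well known from yeast to mammals. In G1, the origin recognition complex with Cdc6 and Cdt1 loads the ring of Mcm2 to Mcm7 onto DNA, which is called licensing. At the start of S phase, the kinase Cdc7 with Dbf4 and the cyclin E kinases turn each loaded ring, with Cdc45 and GINS, into the active CMG helicase. Primase and polymerases alpha, delta and epsilon then make DNA with the sliding clamp PCNA, its loader RFC and the single-strand binding protein RPA, while Fen1 and Lig1 join the short lagging-strand pieces. Most of these genes, like those that make deoxynucleotides, are switched on by E2F transcription factors once cyclin-dependent kinases have inactivated the Rb family. Any dividing cell uses them, tumour cells and activated T cells alike.

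Values are rounded read counts that the authors had divided by a size factor for each library, called normalized counts here. Libraries held about 12719429 to 17504920 reads, and a member had about 67 to 6837 reads in a library, for a counting error (coefficient of variation) of 12.2% to 1.21%. The library labelled Th0 replicate 1 stood apart. It had 31.1% of its values in the RNA genes mt-Rnr1, mt-Rnr2 and Gm26917, against 14.9% to 21.8% in the other libraries, and it was the lowest Th0 library for 36 of the 48 members in the table with Th9, as it was for 43.8% of all genes tested. Its members had a median of 0.867 times the mean of Th0 replicates 2 and 3, and results that rest on this library are given with and without it. In bulk RNA, fewer cells of a type and less RNA per cell cannot be told apart.

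T cell markers differed between the groups. All 24 T cell markers were listed in the table with Th9, 20 could be tested and 18 of these were higher in Th9, with summed values of 1701 to 2443 in Th9 libraries and 103 to 238 in Th0 libraries. In the table with Th17, 13 of 24 were listed and 5 could be tested, none of them called, with sums of 77 to 98 in Th17 libraries and 99 to 221 in Th0 libraries. Markers of other immune cells were also summed. The myeloid sum was above the T cell sum in every Th17 and Th0 library, and under it in every Th9 library. B cell markers summed to 15 to 26 in Th9 and 22 to 50 in Th0, and to 8 to 13 in Th17 and 23 to 52 in Th0 of that table. Myeloid markers summed to 208 to 263 in Th9 and 167 to 311 in Th0, and to 163 to 187 in Th17 and 170 to 321 in Th0 (Itgam and Adgre1 not listed). Within that list Lyz2 fell in Th9 (0, 2 and 1 in Th9 and 33, 15 and 11 in Th0, adjusted p = 0.00163) and Cd14 rose (67, 63 and 58 in Th9 and 41, 37 and 26 in Th0, adjusted p = 0.0135). Of the NK and CD8 T cell markers 1 of 4 was listed, at 7 or less in every library. Of the markers of the tumour cells' origin, Cdh1, Epcam and Nkx2-1 were listed in neither table. The keratin-led epithelial list summed to 3998 to 4716 in Th9 and 4911 to 6989 in Th0, with Krt8 lower in Th9 (difference of -0.97, adjusted p = 0.000316), and to 5826 to 5957 in Th17 and 5051 to 7141 in Th0. Vim, Cdh2 and Fn1, the mesenchymal markers, summed to 83776 to 88399 in Th9 and 76966 to 105470 in Th0, and to 102566 to 103562 in Th17 and 79157 to 107752 in Th0. Without Th0 replicate 1, Vim, Cdh2, Fn1 and Krt18 were also lower in Th9 (adjusted p = 0.00886, 0.0108, 0.00209 and 1.17e-05), as were 19.1% of all genes. In Th17, Krt8 and Krt18 were then lower (adjusted p = 0.000291 and 0.00873), as were 9.7% of all genes. Vim, Cdh2 and Fn1 were not called there. Sftpc, a marker of lung epithelium, had 6 or less in each library of the table with Th9. What part the T cell RNA has in the results on Th9 was not tested.

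E2F factors bind sites close to the starts of many replication genes, so the stretches of promoter that hold such letters are shown first. RefSeq promoter sequences (GRCm38.p6) could be matched for 39 of the 48 members. They were not matched for Mcm4, Gins1, Gins2, Gins4, Prim2, Pole, Rfc2, Ccne2 and Tipin. The 250 bases before the most upstream RefSeq start in that table were searched on both strands for TTTCCCGC, TTTGGCGC, TTTCGCGC and TTTGCCGC. RefSeq's start equals the gene start of the deposited tables for 12 of the 39, lies downstream of it for 21 (by up to 539 bases, in Mcm7) and upstream for 6, so some windows reach into the gene as the tables place it. The stretches below are those of the 5 members that were lower in Th9 and held a match, and of Mcm6, which was not called, for contrast. Each is 60 bases (90 for Mcm6, to hold all of its matches) on the strand of the gene, with matches in capitals.
Cdc6, chr11:98907987-98908046, plus strand: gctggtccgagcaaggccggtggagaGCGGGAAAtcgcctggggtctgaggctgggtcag
Gins3, chr8:95633492-95633551, plus strand: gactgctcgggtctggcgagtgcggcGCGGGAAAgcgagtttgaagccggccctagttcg
Mcm5, chr8:75109332-75109391, plus strand: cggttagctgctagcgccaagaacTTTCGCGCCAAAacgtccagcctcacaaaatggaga
Mcm7, chr5:138172015-138172074, minus strand: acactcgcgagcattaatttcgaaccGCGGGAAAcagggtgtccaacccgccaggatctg
Orc1, chr4:108579394-108579453, plus strand: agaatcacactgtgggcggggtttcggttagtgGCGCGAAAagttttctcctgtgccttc
Mcm6, chr1:128359736-128359825, minus strand: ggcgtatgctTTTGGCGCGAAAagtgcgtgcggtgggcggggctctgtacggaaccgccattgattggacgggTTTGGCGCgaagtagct
Mcm5 holds 2 matches that overlap (TTTCGCGC, and TTTGGCGC on the other strand), and Mcm6 holds 3, of which 2 overlap. The matches of Cdc6, Gins3, Mcm7 and Orc1 lie downstream of the gene start given in the deposited tables, by 212, 65, 374 and 4 bases, and those of Mcm5 and Mcm6 lie upstream of it.

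Of the 39 members with a promoter sequence, 8 (20.5%) held at least 1 of the 4 E2F-like motifs, against 520 of all 27025 promoter windows (1.92%). The 8 are the 6 genes above together with Pola1 and Rfc3, neither of which was called. By outcome in Th9 the motif stood in 5 of 21 members that were lower and in 3 of 17 that were not called, and the single member that was higher, Pold2, held none. CCAAT, the letters bound by NF-Y, stood in 23 of the 39 (59%) and in 34.5% of all windows. TTTGAA, letters known from elements of G2/M genes, stood in 4 of the 39 (10.3%) and in 16.3% of all windows. A match describes letters in this window and is not evidence that a factor binds there.

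Replication genes were mostly lower in the libraries of LLC1 cells kept with Th9 cells than in those of LLC1 cells kept with Th0 cells. Of the 48, 25 fell and 1 rose (limma-trend, Benjamini-Hochberg adjusted p under 0.05 over 14475 genes), while 25.2% of all genes tested were called, 11.9% lower and 13.4% higher. The difference from Th0 was below 0 for 44 members, and its median was -0.34 on the log2 scale, so that the median level fell by 20.9%, while the median over all genes tested was -0.01. In 28 members every Th9 library lay under every Th0 library, as it did for 19.2% of all genes, and in 1 member every Th9 library lay above, as for 21.4% of all genes. Differences are of mean log2(value + 1), and each group has n = 3.

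The sum of all 48 members was 52040, 54392 and 55315 normalized counts in the Th9 libraries, against 61661, 72383 and 72209 in the Th0 libraries. The Th9 libraries all lay under the Th0 libraries. Without mt-Rnr1, mt-Rnr2 and Gm26917, the members made up 0.476%, 0.50% and 0.502% of the values of the Th9 libraries and 0.578%, 0.618% and 0.626% of those of the Th0 libraries, again without overlap.

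How many members passed the threshold depended on the libraries and on the scaling. Without Th0 replicate 1, 36 members were lower and 2 were higher, with a median of -0.43, where 37.1% of all genes were called, 19.1% lower and 18.1% higher. Without Th9 replicate 1, 14 were lower and none was higher, among 838 genes lower (5.8% of those tested) and 1015 higher in all. The members' median stayed below 0 (-0.43 to -0.29 over all 6 libraries left out in turn). With every library scaled to the same total in place of the authors' size factors, 9 members were lower and 2 were higher, among 794 genes lower and 2252 higher in all, against 1716 and 1937 with the size factors. That scaling moved the median of all genes to 0.10, and the members' median minus that of all genes was -0.33 with either scaling. The 9 members that stayed lower under that scaling, and under every other setting tried, were Chaf1a, Cdc6, Tk1, Tyms, Ccne2, Orc1, Rpa2, Mcm3 and Lig1. The rest of the 25 were lost under that scaling, with adjusted p between 0.0639 (Fen1) and 0.471 (Pold1). With mt-Rnr1, mt-Rnr2 and Gm26917 left out of that total, 25 members were lower and 2 were higher, among 1516 genes lower and 2481 higher in all. There the call on Pold1 was lost (adjusted p = 0.0836) and Rrm1 was called lower (adjusted p = 0.0371).

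**Figure D1:**
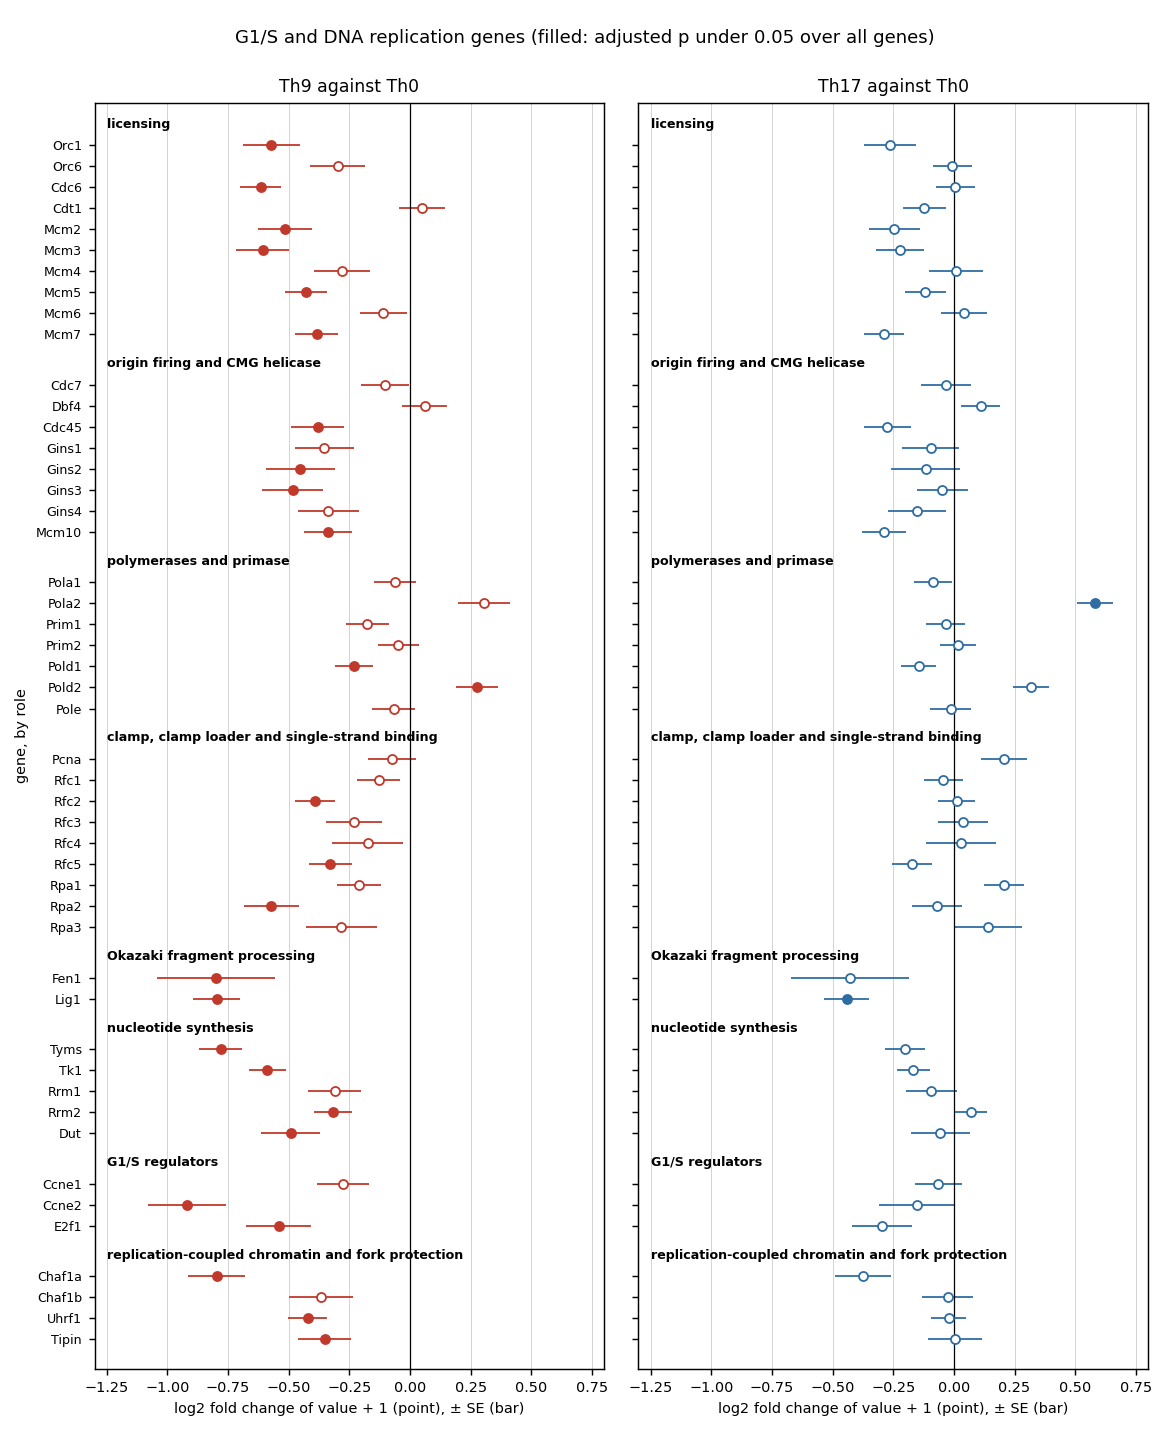
Difference in mean log2(normalized count + 1) of each of the 48 replication genes (points, with 1 standard error) from Th0, by role, with Th9 in the left panel, Th17 in the right panel and called genes filled. In Th9, 44 members lie below 0 and 25 of them are called, while in Th17 1 member is called lower and 1 higher.

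Of the 10 licensing genes, 6 fell in Th9 (60%, against 11.9% of all genes) and none rose (against 13.4%). Their median was -0.41. Cdc6, the loader that brings the helicase to the origin (chr11:98907801-98923940, GRCm38), had 464, 480 and 506 normalized counts in Th9 libraries, against 732, 736 and 755 in Th0 libraries. Every Th9 library was far under the lowest Th0 library, and Cdc6 fell by 0.62 ± 0.08 (log2, SE), with an adjusted p of 0.000219. Orc1, the largest subunit of the origin recognition complex, had 162, 186 and 171 in Th9 and 231, 264 and 279 in Th0. The groups did not overlap, and Orc1 fell by 0.57 ± 0.12 (adjusted p = 0.00403). It shares 10.8% of its exon bases with Gm12743 on the other strand, which was not called. Orc6, the smallest subunit, had 352, 444 and 337 in Th9 and 478, 473 and 433 in Th0. Its libraries overlapped, and its difference of -0.30 missed the threshold (adjusted p = 0.0748, and 0.0308 without Th9 replicate 2). Cdt1, the partner of Cdc6 in loading, had 624, 598 and 695 in Th9 and 656, 639 and 559 in Th0, with overlapping groups and a difference of 0.05 (adjusted p = 0.752).

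The 6 subunits of the MCM ring did not all pass the threshold. Mcm3 (ENSMUSG00000041859, chr1:20802968-20820312) had 3528, 3923 and 4117 in Th9 and 5044, 6255 and 6389 in Th0, with no overlap. It fell by 0.61 ± 0.11 (adjusted p = 0.00159). Mcm2 had 2084, 2248 and 2359 in Th9 and 2666, 3351 and 3615 in Th0, also without overlap, and fell by 0.52 ± 0.11 (adjusted p = 0.00517). Mcm5, whose promoter is shown above, had 1413, 1452 and 1420 in Th9 and 1742, 2113 and 1929 in Th0, and fell by 0.43 ± 0.09 (adjusted p = 0.00377). Mcm7 had 1939, 1876 and 2102 in Th9 and 2337, 2688 and 2711 in Th0. It fell by 0.38 ± 0.09 (adjusted p = 0.00794), a call that was lost without Th9 replicate 1 (0.0531) or Th9 replicate 2 (0.058). Mcm4 had 3246, 3309 and 3563 in Th9 and 3371, 4671 and 4356 in Th0. Mcm6 had 3135, 3332 and 3303 in Th9 and 3057, 3900 and 3635 in Th0. For both, the Th9 libraries overlapped Th0 replicate 1. Mcm4 differed by -0.28 (adjusted p = 0.0952) and Mcm6 by -0.11 (adjusted p = 0.455), and both were called lower without Th0 replicate 1 (adjusted p = 4.21e-05 for Mcm4 and 0.0116 for Mcm6).

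The ring holds 1 copy of each subunit, so the levels of the subunits were also set side by side per kilobase of exon (GENCODE M21), still as normalized counts. Mcm3 averaged 1028 ± 80 per kb in Th9 and 1571 ± 197 per kb in Th0 (SD, n = 3 each), the highest mean of the 6 in both groups. Mcm4 followed with 939.7 ± 46.8 per kb in Th9 and 1152 ± 189 per kb in Th0, and in Th9 its range of 1 SD overlapped that of Mcm3. Mcm6 averaged 698 ± 22.8 per kb in Th9 and 757 ± 92.4 per kb in Th0. Under these came Mcm7 (446 in Th9, 583 in Th0), Mcm5 (358 in Th9, 483 in Th0) and Mcm2 (321 ± 19.9 in Th9, 462 ± 70.4 in Th0), of which Mcm5 and Mcm2 lay within 1 SD of each other in Th0. The order of the 6 means was the same in both groups. Reads per kilobase of a gene model depend on which transcripts are made, so differences between subunits are descriptions of these values.

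**Figure D2:**
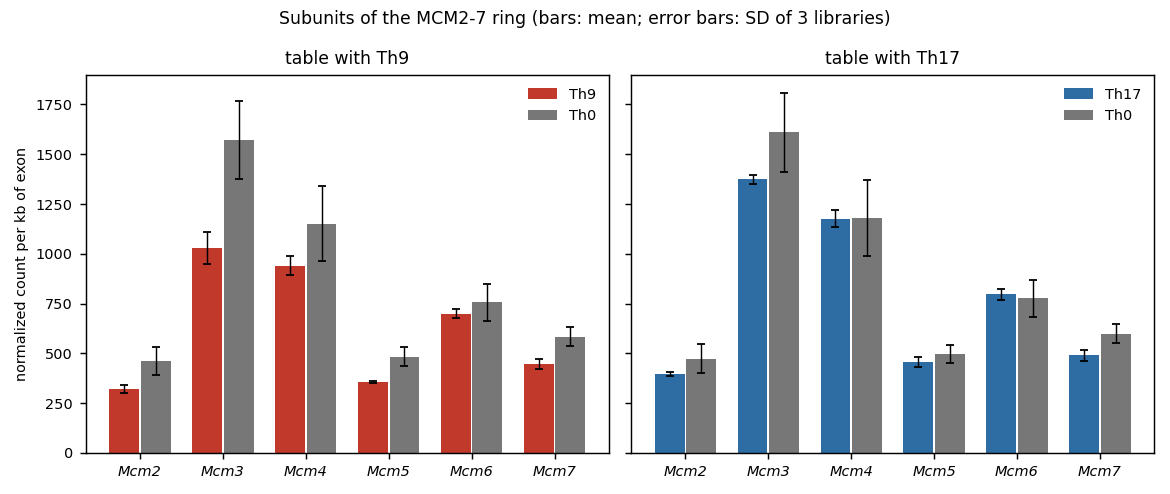
Normalized counts per kilobase of exon of Mcm2 to Mcm7, as bars for the mean and error bars for the SD (n = 3 libraries), with Th9 left of Th0 in one panel and Th17 left of Th0 in the other. In Th9, Mcm3 averages 1028 per kb and Mcm2 321 per kb, and the means of all 6 subunits are under those of Th0.

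Of the 8 genes for origin firing and the CMG helicase, 4 fell in Th9 (50%, against 11.9% of all genes) and none rose (against 13.4%). Their median was -0.35. Cdc45, a part of the active helicase, had 653, 595 and 726 in Th9 and 731, 928 and 920 in Th0. The highest Th9 library lay just under Th0 replicate 1, and Cdc45 fell by 0.38 ± 0.11 (adjusted p = 0.0253). GINS is a ring of 4 different subunits. Gins3 had 144, 184 and 162 in Th9 and 215, 228 and 241 in Th0, without overlap, and fell by 0.48 ± 0.12 (adjusted p = 0.014). Gins2 had 596, 623 and 678 in Th9 and 660, 929 and 1053 in Th0, with an overlap at Th0 replicate 1, and fell by 0.45 ± 0.14 (adjusted p = 0.035). Gins1 had 173, 212 and 197 in Th9 and 221, 260 and 263 in Th0. Its difference of -0.35 missed the threshold (adjusted p = 0.052, and 0.00668 without Th0 replicate 1). Gins4 differed by -0.34 (adjusted p = 0.0674, and 0.000695 without Th0 replicate 1). All 4 GINS genes thus had differences between -0.48 and -0.34, with 2 of the 4 past the threshold.

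Mcm10, which helps the helicase to become active, had 1026, 1124 and 1167 in Th9 and 1236, 1413 and 1557 in Th0. No Th9 library reached a Th0 library, and Mcm10 fell by 0.34 ± 0.10 (adjusted p = 0.0244). Neither subunit of the kinase that fires origins was called. Cdc7 had 395, 449 and 458 in Th9 and 495, 475 and 427 in Th0, with overlap and a difference of -0.10 (adjusted p = 0.492). Dbf4, its activating subunit, had 1228, 1093 and 1258 in Th9 and 1071, 1262 and 1101 in Th0, with overlap and a difference of 0.06 (adjusted p = 0.673). Each call in this group was lost when some single library was left out. Gins3 was lost without Th9 replicate 1 (adjusted p = 0.0858) or Th0 replicate 3 (0.058). Cdc45 was lost without Th9 replicates 1 or 2 or Th0 replicates 2 or 3 (0.0814 to 0.13), Mcm10 without the same libraries (0.0563 to 0.135), and Gins2 without any library other than Th0 replicate 1 (0.0682 to 0.145). Gins2 shares 67.3% of its exon bases with Gse1 on the other strand, and Gse1 was not called (difference of -0.05).

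Of the 7 genes for polymerases and primase, 1 fell (14.3%) and 1 rose (14.3%) in Th9, near the 11.9% of all genes that were lower and the 13.4% that were higher, with a median of -0.06. Their sum was 8807, 8841 and 8498 in Th9 libraries and 8408, 8907 and 8245 in Th0 libraries, with full overlap. Pold1, the catalytic subunit of polymerase delta, had 706, 702 and 684 in Th9 and 830, 811 and 817 in Th0. The groups did not overlap, and Pold1 fell by 0.23 ± 0.08 (adjusted p = 0.0454). Pold2, a small subunit of the same enzyme, had 880, 842 and 770 in Th9 and 644, 704 and 709 in Th0. It was the only member that rose, by 0.28 ± 0.09 (adjusted p = 0.0365), and its groups did not overlap either. Pold1 and Pold2 were thus called in opposite directions. Pold1 was called without Th0 replicate 1 but not without any other library (0.0648 to 0.141). Pold2 was not called without Th9 replicate 1 (0.183), Th9 replicate 2 (0.134) or Th0 replicate 3 (0.0675).

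Pola2, the accessory subunit of polymerase alpha (chr19:5940543-5964206), had 2466, 2291 and 1858 in Th9 and 1758, 1883 and 1683 in Th0. The Th9 library that overlapped Th0 was replicate 3, and the difference of 0.30 missed the threshold (adjusted p = 0.052, 0.0157 without Th9 replicate 3 and 0.0168 without Th0 replicate 1). The other polymerase genes were not called. Pola1, which makes DNA behind the primer, differed by -0.06 (adjusted p = 0.648), Pole, the leading-strand polymerase, by -0.07 (adjusted p = 0.612), Prim2 by -0.05 (adjusted p = 0.719) and Prim1 by -0.18 (adjusted p = 0.17). Prim1 had no overlap between groups, and the other 3 did. Pola1, Pole and Prim2 had differences above 0 with every library scaled to the same total.

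Of the 9 genes for the clamp, its loader and single-strand binding, 3 fell in Th9 (33.3%, against 11.9% of all genes). None rose (against 13.4%), and their median was -0.23. Pcna, the clamp, had 1499, 1578 and 1618 in Th9 and 1562, 1919 and 1492 in Th0. These values overlapped fully, with a difference of -0.07 (adjusted p = 0.622). Rfc2 had 545, 587 and 582 in Th9 and 782, 712 and 756 in Th0, and fell by 0.39 ± 0.08 (adjusted p = 0.00512). Rfc5 had 446, 465 and 482 in Th9 and 548, 623 and 580 in Th0, and fell by 0.33 ± 0.09 (adjusted p = 0.0184). Both loader genes had no overlap, but Rfc5 was lost without Th9 replicates 1 or 2 or Th0 replicates 2 or 3 (0.0533 to 0.1). Rfc5 also shares 10.7% of its exon bases with Wsb2 on the other strand, which itself was lower in Th9 (284.7 ± 11.7 in Th9 and 381 ± 40.9 in Th0, adjusted p = 0.014). Rfc2 shares 15.1% with Lat2 and Rfc4 12.7% with Eif4a2, neither of which was called. Rfc1, Rfc3 and Rfc4 differed by -0.13 to -0.23 and were not called, though Rfc1 and Rfc4 were called lower without Th0 replicate 1 (adjusted p = 0.0296 for Rfc1 and 0.0129 for Rfc4).

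RPA binds single-stranded DNA as a unit of 3 subunits. Rpa2 had 207, 240 and 231 in Th9 and 297, 348 and 366 in Th0, with no overlap, and fell by 0.57 ± 0.11 (adjusted p = 0.0034). Rpa1, the large subunit, had 1929, 1997 and 1757 in Th9 and 2014, 2393 and 2172 in Th0. Its Th9 libraries lay just under the Th0 libraries, and its difference of -0.21 missed the threshold (adjusted p = 0.111). Rpa3, the small subunit, differed by -0.28 (adjusted p = 0.177). Rpa1 (adjusted p = 0.00579) and Rpa3 (adjusted p = 0.037) were called lower without Th0 replicate 1.

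Both genes that finish lagging-strand pieces fell in Th9, where 11.9% of all genes were lower. Lig1, DNA ligase I (ENSMUSG00000056394, chr7:13277283-13311433), had 2570, 2806 and 2732 in Th9 and 4227, 4601 and 5305 in Th0. The groups lay far apart, and Lig1 fell by 0.80 ± 0.10 (adjusted p = 0.000113), and its level fell by 42.4%. Fen1, the flap endonuclease, had 79, 66 and 87 in Th9 and 87, 145 and 193 in Th0. Its highest Th9 library equalled Th0 replicate 1, and it fell by 0.80 ± 0.24 (adjusted p = 0.03). This call was lost without any library other than Th0 replicate 1 (0.059 to 0.131). Fen1 shares 78.8% of its exon bases with Gm10143 on the other strand, which was not called.

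**Figure D3:**
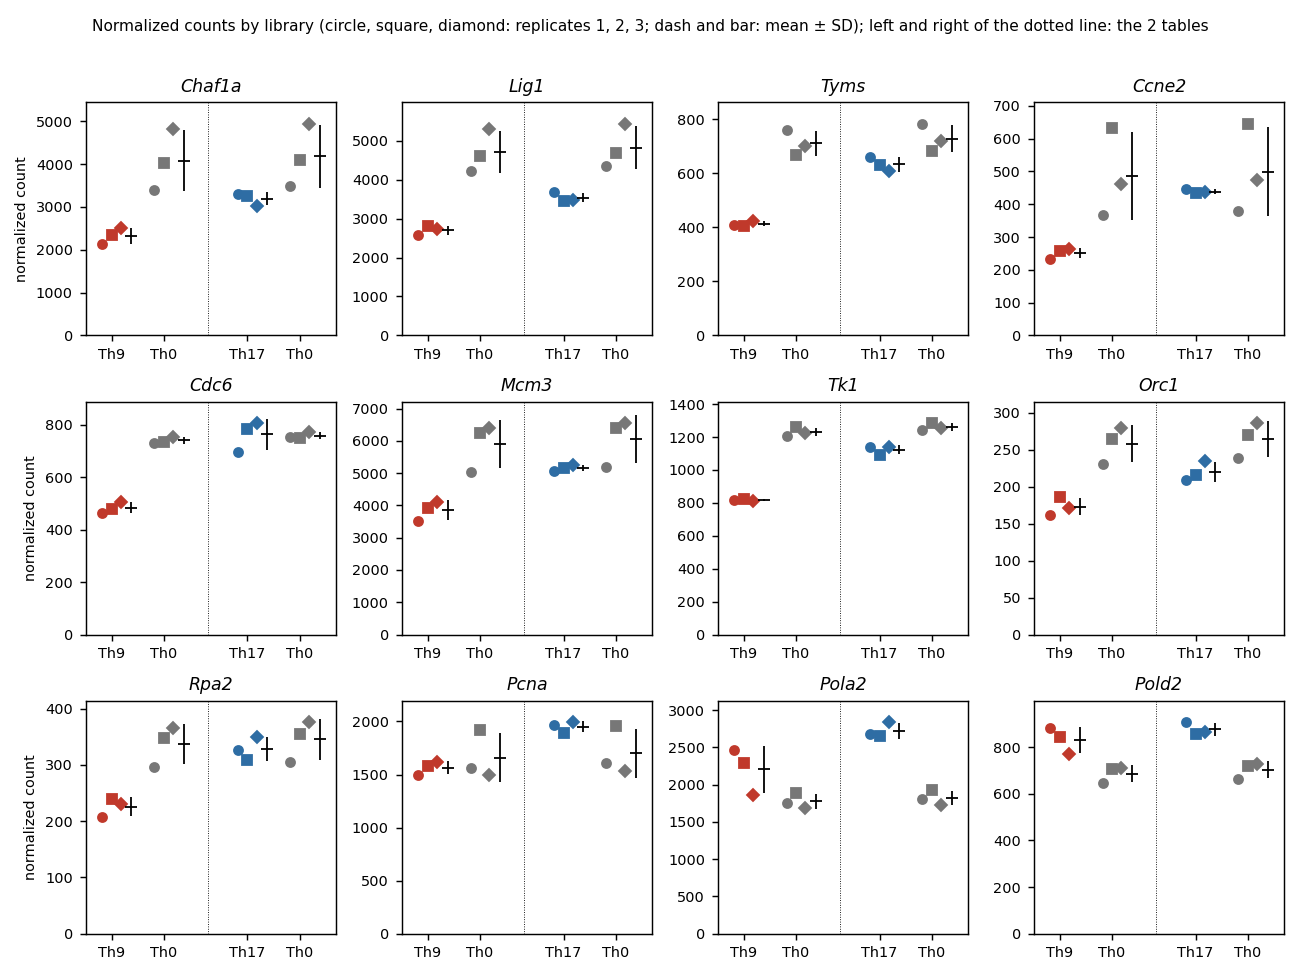
Normalized counts (y axis) of 12 replication genes in every library, with Th9 and Th17 each left of the Th0 libraries of the same table, and the mean and SD of each group beside its points. Lig1 and Tyms have no overlap between Th9 and Th0, and Pola2 has none between Th17 and Th0.

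Of the 5 genes for deoxynucleotide synthesis, 4 fell in Th9 (80%, against 11.9% of all genes) and none rose (against 13.4%). Their median was -0.49. Tyms, thymidylate synthase (chr5:30058202-30073617), had 410, 406 and 423 in Th9 and 762, 669 and 702 in Th0. Its Th9 libraries lay close together and far under Th0, and Tyms fell by 0.78 ± 0.09 (adjusted p = 5.81e-05), the smallest adjusted p of the 48 members. Tk1, the thymidine kinase of the salvage route, had 819, 825 and 809 in Th9 and 1208, 1259 and 1223 in Th0, and fell by 0.59 ± 0.08 (adjusted p = 0.000164). Dut, the dUTPase that keeps uracil out of DNA, had 1028, 1075 and 1033 in Th9 and 1194, 1494 and 1780 in Th0, and fell by 0.49 ± 0.12 (adjusted p = 0.0113). Tk1 and Dut had no overlap between groups, and Dut was lost without Th9 replicate 1 (0.0544).

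Ribonucleotide reductase turns ribonucleotides into deoxynucleotides. Rrm2, the S-phase subunit, had 1437, 1561 and 1494 in Th9 and 1830, 1912 and 1851 in Th0. It fell by 0.32 ± 0.08 (adjusted p = 0.0107) and was lost without Th9 replicate 1 (0.082). Rrm1, the large subunit, had 2214, 2360 and 2474 in Th9 and 2428, 3255 and 3119 in Th0. It overlapped through Th0 replicate 1, and its difference of -0.31 missed the threshold with that library (adjusted p = 0.0565) and passed it without (difference of -0.44, adjusted p = 3.12e-05).

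Of the 3 G1/S regulators, 2 fell in Th9 (66.7%, against 11.9% of all genes) and none rose (against 13.4%). Their median was -0.54. Ccne2, cyclin E2, had 233, 258 and 262 in Th9 and 368, 632 and 461 in Th0. The Th0 libraries were widely spread but all above Th9, and Ccne2 fell by 0.92 ± 0.16 (adjusted p = 0.00133), to 0.529 times its level in Th0, the largest difference among the members. It shares 17.4% of its exon bases with Ints8 on the other strand, which was not called (difference of -0.0021). E2f1, an activating E2F, had 283, 255 and 311 in Th9 and 366, 373 and 509 in Th0, and fell by 0.54 ± 0.13 (adjusted p = 0.0116, and 0.0667 without Th9 replicate 2). Ccne1, cyclin E1, had 200, 205 and 187 in Th9 and 225, 238 and 255 in Th0. Its groups did not overlap, but its difference of -0.28 missed the threshold (adjusted p = 0.0824). Ccne1 was called lower without Th0 replicate 1 (adjusted p = 0.0292) and with array weights (adjusted p = 0.00771).

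Of the 4 genes for chromatin behind the fork and fork protection, 3 fell in Th9 (75%, against 11.9% of all genes). None rose (against 13.4%), and their median was -0.39. Chaf1a, the large subunit of the histone chaperone CAF-1 (chr17:56040416-56068026), had 2138, 2338 and 2501 in Th9 and 3394, 4016 and 4818 in Th0. There was no overlap, and Chaf1a fell by 0.80 ± 0.12 (adjusted p = 0.000464). It shares 52.5% of its exon bases with Ubxn6 on the other strand, which had 513 ± 8.96 in Th9 and 528 ± 12.5 in Th0 and was not called. Chaf1b, the middle subunit, had 194, 161 and 215 in Th9 and 221, 246 and 266 in Th0, with a difference of -0.37 (adjusted p = 0.0593, and 0.0113 without Th0 replicate 1). Uhrf1, which guides DNA methylation onto new strands, had 1886, 1997 and 2019 in Th9 and 2507, 2785 and 2617 in Th0, and fell by 0.42 ± 0.08 (adjusted p = 0.00255). Tipin, which protects stalled forks with Timeless, had 1163, 1355 and 1312 in Th9 and 1367, 1775 and 1770 in Th0. It fell by 0.35 ± 0.11 (adjusted p = 0.0341) and was lost without any library other than Th0 replicate 1 (0.0699 to 0.17).

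In the libraries of cells kept with Th17 cells, few replication genes were called against Th0. Of the 48 members, 1 fell and 1 rose, where 1.58% of all 14342 genes tested were called, 0.39% lower and 1.19% higher. The difference was below 0 for 33 members and above 0 for 15, with a median of -0.06 (range -0.44 to 0.58), beside 0.00 over all genes tested. Every Th17 library lay under every Th0 library for 11 members, as for 10.6% of all genes, and above for 4 members, as for 12.8% of all genes. The sum of the 48 was 66189, 65392 and 67231 in Th17 libraries and 63421, 73940 and 74098 in Th0 libraries, so the Th17 libraries lay above Th0 replicate 1 and under the other Th0 libraries.

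This comparison turned on Th0 replicate 1. Without it, 15 members were lower and 2 were higher in Th17, with a median of -0.13, where 16.6% of all genes were called, 9.7% lower and 6.85% higher. The 15 were Lig1, Cdc45, Chaf1a, Mcm2, Mcm3, Mcm7, Mcm10, Fen1, Tk1, E2f1, Ccne2, Orc1, Rrm1, Gins2 and Gins4, and the 2 were Pola2 and Pold2. With any of the other 5 libraries left out, no member was called lower.

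Lig1 was the member that fell in Th17. It had 3681, 3454 and 3484 in Th17 and 4347, 4700 and 5444 in Th0, without overlap, and fell by 0.44 ± 0.09 (adjusted p = 0.0445). That call was lost without any 1 of the Th17 libraries (0.176 to 0.245), without Th0 replicate 2 (0.0626) or 3 (0.157), and with every library scaled to the same total (0.215). Pola2 was the member that rose. It had 2673, 2648 and 2839 in Th17 and 1808, 1923 and 1727 in Th0, with the lowest Th17 library far above the highest Th0 library. Pola2 rose by 0.58 ± 0.07 (adjusted p = 0.00573), to 1.5 times its level in Th0, and the call was lost without Th17 replicate 1 (0.0585) or replicate 3 (0.0631). Pold2 had 907, 854 and 866 in Th17 and 662, 719 and 728 in Th0. Its groups did not overlap, and its difference of 0.32 missed the threshold (adjusted p = 0.0696, and 0.008 without Th0 replicate 1).

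Genes that fell in Th9 and were called under every setting there were, other than Lig1, not called in Th17. Cdc6 had 697, 786 and 808 in Th17 and 753, 751 and 775 in Th0, with a difference of 0.0048 (adjusted p = 0.985). Tyms had 662, 632 and 607 in Th17 and 784, 683 and 720 in Th0, with a difference of -0.20 (adjusted p = 0.23). Rpa2 had 326, 308 and 350 in Th17 and 305, 355 and 376 in Th0, with a difference of -0.07 (adjusted p = 0.772). Of these, Tyms had no overlap between groups, and the others did. Tk1 had 1139, 1091 and 1139 in Th17 and 1243, 1286 and 1255 in Th0, with a difference of -0.17 (adjusted p = 0.231). Mcm3 had 5074, 5157 and 5244 in Th17 and 5188, 6390 and 6556 in Th0, with a difference of -0.22 (adjusted p = 0.269). Chaf1a had 3294, 3258 and 3023 in Th17 and 3490, 4103 and 4944 in Th0, with a difference of -0.38 (adjusted p = 0.13). Tk1 and Chaf1a did not overlap with Th0, Mcm3 overlapped through Th0 replicate 1, and all 3 were lower without that library (adjusted p = 0.0462 for Tk1, 0.000445 for Mcm3 and 0.000343 for Chaf1a).

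Per kilobase of exon, the means of the MCM subunits in Th17 had the same order as in Th0, from Mcm3 (1375 ± 22.7 per kb in Th17 and 1611 ± 199 per kb in Th0) to Mcm2 (396 per kb in Th17 and 473 ± 71.4 per kb in Th0). Pcna, the clamp, had 1965, 1894 and 1994 in Th17 and 1607, 1961 and 1531 in Th0, with a difference of 0.21 (adjusted p = 0.279). Rpa1 had 2540, 2525 and 2700 in Th17 and 2071, 2445 and 2228 in Th0, with a difference of 0.21 (adjusted p = 0.217) and no overlap.

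**Figure D4:**
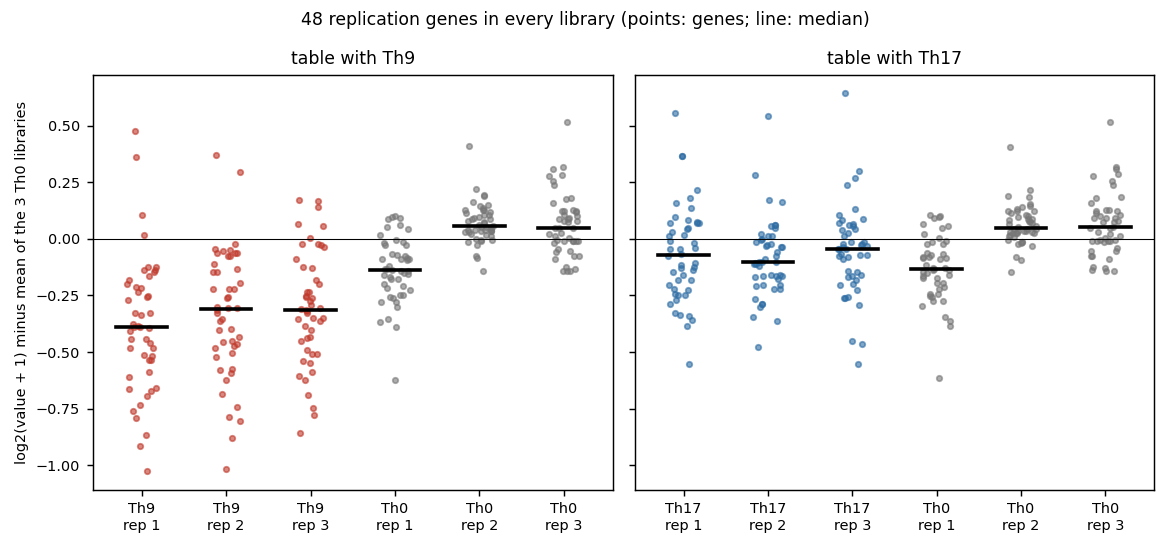
The 48 members (points) and their median (line) in each library, as log2(value + 1) minus the mean of Th0 in the same table, with Th9 and Th17 left of their Th0 libraries. The medians are -0.39, -0.31 and -0.31 in Th9 and -0.14, 0.06 and 0.05 in the Th0 libraries of that table, and -0.07, -0.10 and -0.05 in Th17 and -0.13, 0.05 and 0.05 in the Th0 libraries of the other.

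Seen per library, the members' medians in Th9 (-0.39, -0.31 and -0.31, log2 relative to the Th0 mean) all lay under that of Th0 replicate 1 (-0.14) and of the other Th0 libraries (0.06 and 0.05). In Th17 the medians (-0.07, -0.10 and -0.05) lay between Th0 replicate 1 (-0.13) and the other Th0 libraries (0.05 each). Of the 48 members, 44, 46 and 42 lay under the Th0 mean in the Th9 libraries, against 40, 8 and 18 in Th0. In the table with Th17 they were 30, 36 and 32 in the Th17 libraries, against 39, 9 and 18 in Th0.

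Set side by side, 24 members were lower in Th9 and not called in Th17, Lig1 was lower in both, Pold2 was called higher in Th9 and not called in Th17, Pola2 was called higher in Th17 and not called in Th9, and 21 were called in neither. The difference between Th9 and Th17 was not tested, since the tables were normalized apart and both comparisons share the same Th0 libraries. By role, the median differences from Th0 were -0.41 in Th9 and -0.12 in Th17 for licensing, -0.35 in Th9 and -0.11 in Th17 for firing and the CMG helicase, and -0.06 in Th9 and -0.01 in Th17 for polymerases and primase. They were -0.23 in Th9 and 0.03 in Th17 for clamp, loader and RPA, -0.80 in Th9 and -0.43 in Th17 for lagging-strand processing, and -0.49 in Th9 and -0.09 in Th17 for nucleotide synthesis. For G1/S regulators they were -0.54 in Th9 and -0.15 in Th17, and for chromatin and fork protection -0.39 in Th9 and -0.02 in Th17.

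A wider list of 70 other genes of G1/S control and replication was read from the same fits, of which 68 were listed and tested (Cdkn2a and Cdkn2b were not listed). In Th9, 20 of the 68 fell (29.4%) and 16 rose (23.5%), with a median of -0.07, beside 11.9% lower and 13.4% higher over all genes. In Th17, none fell and 2 rose (2.94%), with a median of 0.01, beside 0.39% lower and 1.19% higher over all genes. Without Th0 replicate 1, 27 fell and 16 rose in Th9, beside 19.1% lower and 18.1% higher over all genes. Without it in Th17, 5 fell and 6 rose, beside 9.7% lower and 6.85% higher over all genes. With all libraries, falls in Th9 were most frequent among other polymerase and fork genes, where 9 of 14 fell and 1 rose (median -0.40). Among other chromatin genes 4 of 7 fell and none rose. Among other nucleotide genes, none of 12 fell and 6 rose (median 0.24). Among G1 cyclins, kinases and inhibitors 3 of 11 fell and 4 rose, among Rb and E2F genes 1 of 12 fell (8.33%) and 2 rose (16.7%), near the shares over all genes, and among other licensing and firing genes 3 of 12 fell and 3 rose.

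Dscc1, which loads the clamp for sister chromatid cohesion, had 235, 233 and 234 in Th9 and 463, 483 and 496 in Th0, and fell by 1.03 (adjusted p = 1.0e-05). Timeless, the partner of Tipin, had 829, 867 and 866 in Th9 and 1338, 1386 and 1418 in Th0, and fell by 0.69 (adjusted p = 5.48e-05). Clspn, the adaptor of the replication checkpoint, had 900, 1019 and 974 in Th9 and 1503, 1633 and 1740 in Th0, and fell by 0.75 (adjusted p = 7.62e-05). These 3 fork genes had no overlap between Th9 and Th0. E2f7, a repressor among the E2F factors, had 285, 288 and 287 in Th9 and 499, 480 and 470 in Th0, and fell by 0.75 (adjusted p = 9.0e-05).

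The genes of the wider list with the smallest adjusted p among those that rose in Th9 were Cdk6, Rb1, Rrm2b and Cdkn1a. Cdk6, a kinase that phosphorylates Rb in G1, had 3674, 3672 and 3785 in Th9 and 2142, 2314 and 2499 in Th0, and rose by 0.68 (adjusted p = 0.000129). Rb1, the retinoblastoma protein that holds E2F in check, had 274, 233 and 253 in Th9 and 141, 176 and 171 in Th0, and rose by 0.64 (adjusted p = 0.00297). Rrm2b, the p53-induced subunit of ribonucleotide reductase, had 212, 234 and 211 in Th9 and 132, 158 and 153 in Th0, and rose by 0.57 (adjusted p = 0.005). None of the 3 overlapped with Th0. Cdkn1a, the inhibitor p21, had 1048, 1142 and 934 in Th9 and 798, 796 and 785 in Th0, and rose by 0.39 (adjusted p = 0.00798, and 0.062 without Th9 replicate 2). Cdkn2c, another inhibitor, went the other way, with 101, 110 and 114 in Th9 and 193, 252 and 233 in Th0. It fell by 1.05 (adjusted p = 0.000164), the largest fall of the wider list, and the inhibitor Cdkn1b was not called (adjusted p = 0.533). Ccnd1, cyclin D1, had 3840, 3758 and 3485 in Th9 and 2897, 3583 and 3422 in Th0, with overlap and a difference of 0.17 (adjusted p = 0.234). The summed T cell markers were higher in these Th9 libraries than in Th0, and how much of these values comes from T cells was not tested.

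With all libraries, the genes of the wider list that rose in Th17 were Cdk4 and Mcmbp. Cdk4, the other kinase of cyclin D, had 1498, 1322 and 1404 in Th17 and 1012, 1153 and 1016 in Th0, and rose by 0.41 (adjusted p = 0.0367). Mcmbp, which binds the MCM ring, had 1468, 1339 and 1399 in Th17 and 1072, 1097 and 946 in Th0, and rose by 0.43 (adjusted p = 0.0268). Neither gene overlapped with Th0, and both calls were lost without any 1 Th17 library or without Th0 replicate 3 (0.118 to 0.232 for Cdk4 and 0.106 to 0.181 for Mcmbp), and with every library scaled to the same total (0.127 for Cdk4 and 0.0724 for Mcmbp). In Th9 both were also higher than in Th0, Cdk4 by 0.31 (adjusted p = 0.0244) and Mcmbp by 0.28 (adjusted p = 0.0325). Those calls were lost without Th9 replicates 1 or 2 or Th0 replicate 3 (0.09 to 0.121 for Cdk4 and 0.129 to 0.147 for Mcmbp), and for Mcmbp without Th9 replicate 3 (0.0544).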

How the data were processed

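Libraries (9) were made from total RNA, 1 µg each, with the SMARTer Stranded kit for total mammalian RNA, per the labels' protocols. The submitters' processing notes name STAR 2.4.0a, Subread with featureCounts 1.4.5-p1, and DESeq2 1.62, and as builds mm10 and GRCm38, but no role or order. The 2 deposited tables give each gene a score that is a whole number. The Th0 libraries stand in both and differ by 1 factor each (1.03, 1.02 and 1.03), so scores are counts that the authors divided by size factors and rounded. No source says if counting respected strand, so 14 members that share exon bases with another listed gene (8 by at least 10%) may share reads with it.

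Each comparison was fitted over every gene of its table whose mean was 10 or more, by limma-trend (limma 3.58.1, R 4.3.3) on log2(value + 1) with group as the only term. A count model was not used, since the scores are no longer counts. A call is a Benjamini-Hochberg adjusted p under 0.05. Reads were approximated as the score times the size factor, itself estimated from the steps between scores. Exon lengths and overlaps came from GENCODE M21. All 48 members are named. Up to 12 called members per comparison with the largest change have the values of every library, as do others where their role is described. Of the wider list, up to 4 genes per comparison and direction with the smallest adjusted p are named, and always Ccnd1, Cdkn1a and Rb1. Cdkn2c and Cdkn1b are given beside Cdkn1a. Marker lists for T cells, B cells, myeloid cells, NK and CD8 T cells, and epithelial, mesenchymal and lung cells were summed per library. The members, lists, tests and alternatives were chosen with earlier results of these data known. No column of sample values was left unused (0).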

Additional observations from a re-analysis of the deposited data

How the results depend on the processing

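Leaving out 1 library at a time, 1853 to 5336 genes were called in Th9, with 14 to 36 members lower, 0 to 2 higher and a member median of -0.43 to -0.29. In Th17, 16 to 2352 genes were called, with 0 to 15 members lower, 0 to 2 higher and a median of -0.13 to -0.03. With every library scaled to the same total, Th9 had 9 members lower, 2 higher and a median of -0.23, and Th17 had 139 genes called and 0 members lower. Without mt-Rnr1, mt-Rnr2 and Gm26917 in that total, Th9 had 25 members lower (52.1%, against 10.5% of all genes), 2 higher and a median of -0.29. Th17 then had 447 genes called, 1 member lower and 2 higher. Array weights gave 6628 genes in Th9, with 36 members lower (75.0%, against 22.98% of all genes), 2 higher and a median of -0.42. In Th17 array weights gave 3361 genes, with 16 members lower (33.33%, against 12.47% of all genes) and 4 higher. The causes were not tested. Same-number correlations were 0.111, -0.011 and 0.145 for Th9, where other pairs had -0.135 to 0.04. For Th17 they were -0.055, -0.079 and 0.039, where other pairs had -0.047 to 0.094. These are too few to tell whether replicate numbers pair the samples. With the replicate block, Th9 had 30 members lower (62.5%, against 13.6% of all genes) and 2 higher. Th17 then had 1 higher (Pola2) and 0 lower, the call on Lig1 being lost (adjusted p = 0.0507). A pseudocount of 5, no filter, and a mean of at least 50 kept the counts of members within 1.5 times. Depth limits Fen1 most, with about 67 reads in its lowest library (counting error 12.2%).

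Differences that missed the threshold with all libraries and the authors' size factors changed sign in other settings as follows. In Th17, the lower ends of the ranges for Ccne2 and Gins2 were called without Th0 replicate 1 (adjusted p = 0.043 for Ccne2 and 0.0111 for Gins2). With the same total in Th9, differences were 0.047 for Pola1, 0.040 for Pole, 0.060 for Prim2, 0.033 for Pcna and 0.0064 for Cdc7. With array weights in Th9, differences were 0.016 for Pole. Over the libraries left out in Th9 they ran over -0.022 to 0.10 for Cdt1 and -0.15 to 0.035 for Pcna. With the same total in Th17, differences were 0.0019 for Uhrf1, 0.0094 for Pole and 0.017 for Orc6. With that total taken without those RNA genes in Th17, differences were 0.0014 for Uhrf1, 0.0089 for Pole and 0.017 for Orc6. With array weights in Th17, differences were 0.078 for Pole, 0.016 for E2f7, -0.073 for Mcm4, -0.19 for Rfc4, 0.012 for Prim1, -0.019 for Mcm6, 0.071 for Cdc7, 0.045 for Orc6 and -0.12 for Tipin. Over the libraries left out in Th17 they ran over -0.33 to 0.052 for Ccne2, -0.037 to 0.069 for Cdc6, -0.094 to 0.063 for Cdc7, -0.065 to 0.069 for Cdkn1a, -0.095 to 0.038 for Chaf1b, -0.20 to 0.083 for Dut and -0.063 to 0.035 for E2f7. They ran over -0.31 to 0.026 for Gins2, -0.11 to 0.011 for Gins3, -0.13 to 0.10 for Mcm4, -0.055 to 0.12 for Mcm6, -0.050 to 0.023 for Orc6, -0.085 to 0.036 for Pole and -0.014 to 0.049 for Prim2. They ran over -0.028 to 0.045 for Rfc2, -0.028 to 0.13 for Rfc3, -0.14 to 0.19 for Rfc4, -0.12 to 0.067 for Tipin and -0.055 to 0.016 for Uhrf1.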
